A study of Mus musculus with 23 samples.

Results

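Basophil and mast cell progenitors were gated from single-cell RNA sequencing of mouse bone marrow as barcodes with at least 500 detected genes, at most 10% of unique molecular identifiers (UMIs, counted RNA molecules) in mitochondrial genes, and at least 1 UMI of at least 2 of the 4 genes Cpa3, Ms4a2, Mcpt8 and Prss34. Barcodes with a UMI of Klf1, an erythroid transcription factor, or Epx, the eosinophil peroxidase, were left out. The rule found 497 cells among 69444 bone marrow barcodes that passed the quality filter, out of 75993 bone marrow barcodes and 139967 barcodes in the 16 expression libraries of the series. Since the 4 genes chose the cells, their levels are given as a description only.

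The 6 bone marrow libraries came from mice of 2 months, labelled C57BL/6 (the methods name eggs of C57BL/6N), that carried wild-type Stat5b (WT) or a change of the STAT5B tyrosine Y665 to histidine (Y665H) or to phenylalanine (Y665F), with 2 libraries per genotype. Both changes are in the germline and so in every cell of the mouse. Y665H was made by adenine base editing, and Y665F by Cas9 cutting with a donor oligonucleotide that also carried a silent change. The labels give no zygosity for bone marrow, while the study names homozygous mice for its counts of marrow stem and progenitor cells. The labels also do not say whether the libraries of a genotype came from separate mice. The p-values therefore measure the spread between these libraries. Xist, an RNA of female cells described below, was found in the gated cells of replicate 1 and not of replicate 2 of every genotype. The libraries of a genotype are therefore unlikely to be repeats of the same mouse, and their spread includes this difference. How much of the spread is technical is not known. Whether the marrow cells were enriched before loading is not given in the sources used here. Fewer gated cells and less marker RNA per cell cannot be told apart in the shares below.

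Basophils and mast cells carry the high-affinity receptor for immunoglobulin E and store histamine, proteoglycan and proteases in granules. Both arise in the marrow from myeloid progenitors under GATA2, and basophils are expanded by interleukin 3, whose receptor signals through STAT5. STAT5B is a latent transcription factor whose SH2 domain, in which Y665 lies, binds the phosphorylated tyrosine of a partner STAT5 molecule.

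The edited codon is shown because its change defines the genotypes. It lies in exon 16 of 19 of Stat5b on the minus strand of chromosome 11, at chr11:100787291-100787293 of GRCm38, in coding sequence. The stretch chr11:100787276-100787308 is given on the transcript strand with the Y665 codon in capitals. Both alleles were made with the same guide, whose 20-base spacer is printed in lower case and whose PAM is in capitals. The guide and PAM matched the strand opposite to the transcript at chr11:100787287-100787309, so the codon lies inside the match.

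Stat5b Y665 codon: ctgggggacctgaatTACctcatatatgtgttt
Guide: tgaggtaattcaggtcccccAGG

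The upstream promoter stretches of the 4 genes of the rule are shown because these genes define the cells. Each is the 250 bases before the start site from RefSeq (GRCm38.p6), 5′ to 3′ on the strand of the gene, at chr3:20242182-20242431 (minus strand) for Cpa3, chr19:11623720-11623969 (minus) for Ms4a2, chr14:56085198-56085447 (minus) for Mcpt8 and chr17:25298144-25298393 (plus) for Prss34. Capitals mark AGATAA on either strand (TTATCT on the other), a form of the GATA motif.

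Cpa3: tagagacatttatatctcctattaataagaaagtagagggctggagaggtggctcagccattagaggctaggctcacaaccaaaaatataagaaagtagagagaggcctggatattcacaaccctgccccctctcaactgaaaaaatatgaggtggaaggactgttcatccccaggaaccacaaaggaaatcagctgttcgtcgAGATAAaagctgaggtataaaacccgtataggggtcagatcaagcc
Ms4a2: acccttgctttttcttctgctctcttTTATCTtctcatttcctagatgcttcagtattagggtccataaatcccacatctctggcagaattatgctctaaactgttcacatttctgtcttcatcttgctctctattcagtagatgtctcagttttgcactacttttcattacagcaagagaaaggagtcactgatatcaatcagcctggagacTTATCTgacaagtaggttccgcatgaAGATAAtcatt
Mcpt8: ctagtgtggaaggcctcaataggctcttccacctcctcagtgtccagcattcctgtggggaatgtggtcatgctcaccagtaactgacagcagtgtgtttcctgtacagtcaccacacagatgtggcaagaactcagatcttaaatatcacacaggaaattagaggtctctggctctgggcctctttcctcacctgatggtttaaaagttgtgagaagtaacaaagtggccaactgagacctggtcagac
Prss34: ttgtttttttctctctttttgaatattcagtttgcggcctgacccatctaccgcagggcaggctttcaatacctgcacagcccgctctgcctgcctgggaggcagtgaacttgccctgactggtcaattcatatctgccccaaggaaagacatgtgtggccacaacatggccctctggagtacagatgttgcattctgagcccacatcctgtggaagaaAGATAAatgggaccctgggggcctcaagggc

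AGATAA was found once upstream of Cpa3, 46 bases before the start, 3 times upstream of Ms4a2, 224, 37 and 11 bases before it, and once upstream of Prss34, 31 bases before it. The Mcpt8 stretch held none. Of 32851 mouse promoters searched the same way, 3281 (9.99%) held it in these 250 bases. A match describes these letters and is not shown to be a binding site.

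Several libraries stood apart before any comparison. WT replicate 1 gave only 15 gated cells, and ribosomal protein genes took 19.7% of their UMIs against 27.2 to 31.3% in the gated cells of the other 5 libraries. In Y665F replicate 2 no barcode of the matrix, before the quality filter, held fewer than 1179 UMIs, whereas the lowest was 500 in the other 5 libraries. Xist, the RNA of the inactive X chromosome, was at 250 to 1930 CPM (counts scaled to the total UMIs of those cells) in the gated cells of replicate 1 of every genotype and at 0 in replicate 2, although the methods of the study name male mice. Replicate number and this sex marker cannot be told apart. Pairs of libraries shared between 80 and 476 barcode sequences, and 1 gated barcode occurred in a pair.

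Gated cells were a larger share of the marrow barcodes in both Y665F libraries than in the WT and Y665H libraries, but the planned test of the order of the genotypes did not pass. WT held 15 gated cells of 3866 (0.388%, exact 95% binomial interval 0.217 to 0.639%) and 57 of 10289 (0.554%, 0.42 to 0.717%). Y665H held 52 of 9254 (0.562%, 0.42 to 0.736%) and 36 of 10510 (0.343%, 0.24 to 0.474%). Y665F held 170 of 16814 (1.01%, 0.865 to 1.17%) and 167 of 18711 (0.893%). These intervals cover counting error only.

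The mean share was 0.471% ± 0.117 (SD, n = 2) in WT, 0.452% ± 0.155 in Y665H and 0.952% ± 0.0838 in Y665F, so that Y665F lay 2.02-fold above WT and the WT and Y665H libraries overlapped. Pairs of libraries that followed the order Y665H, WT, Y665F, taken from how the study describes the alleles, were counted (the Jonckheere-Terpstra statistic), and 10 of 12 did so. An exact permutation of the labels, two-sided, gave p = 0.178 over 90 arrangements, where 0.0222 is the smallest p that this design allows. With 2 libraries a group, an exact permutation test of a pair of genotypes cannot reach 0.05.

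The depth of the gated cells moved with the share. They held a median of 1406 and 2126 UMIs in WT, 2363 and 1803.5 in Y665H, and 3151 and 2944 in Y665F. Over all quality-filtered barcodes the medians were 2070 and 1980 UMIs in WT, 3320 and 1830 in Y665H, and 2570 and 2250 in Y665F. The deepest library on that measure, Y665H replicate 1, had a share of 0.562%. When every barcode was thinned to 1000 UMIs before the rule was applied, and barcodes with fewer were left out, 3047 and 9401 barcodes remained in WT, 8456 and 9478 in Y665H, and 14346 and 18711 in Y665F, the last being all of that library. The shares of these unevenly trimmed totals were 0.295% and 0.33% in WT, 0.284% and 0.127% in Y665H, and 0.495% and 0.251% in Y665F. Y665F replicate 2 then lay below both WT libraries, and the ratio of Y665F to WT fell to 1.19 (exact permutation p = 0.333). At a stricter rule of at least 3 of the 4 genes, the shares were 0.103% and 0.068% in WT, 0.0864% and 0.019% in Y665H, and 0.25% and 0.187% in Y665F, a 2.55-fold ratio (exact permutation p = 0.0667). With at least 2 of the genes at 2 or more UMIs, Y665F replicate 2 (0.139%) lay below WT replicate 2 (0.156%) and Y665H replicate 1 (0.173%).

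The other cells of the marrow also moved with genotype. Granulocyte-monocyte progenitors (GMP) were gated as barcodes with at least 3 of Mpo, Elane, Prtn3 and Ctsg at 2 or more UMIs and no UMI of Klf1 or Epx. Gated cells that met this rule were not counted as GMP. They were 2 and 11 cells in WT, 13 and 5 in Y665H, and 62 and 56 in Y665F. The number of gated cells came to 4.67% and 7.88% of the number of GMP in WT, 5.7% and 4.6% in Y665H, and 9.57% and 7.83% in Y665F, a scale chosen after the data were seen. The Y665F and WT ranges overlapped on that scale, and the ratio of the means was 1.39. As a background level, 0 or 1 barcode per library among barcodes with at least 2 UMIs of the B cell gene Cd79a held 2 or more of the 4 genes, which is at most 0.741% of these barcodes, and in Y665F replicate 2 as many as 8.15% of them held a Cpa3 UMI. Among barcodes with at least 2 UMIs of Klf1, the share with 2 or more of the genes was 1.5% (5 of 333) and 7.48% (8 of 107) in Y665F, against 0 to 1.05% in the WT and Y665H libraries, at median depths of 4832 to 13767 UMIs. Among all barcodes with a UMI of Klf1, the share with 2 or more of the genes was 1.11% and 0.406% in WT, 0.249% and 0.308% in Y665H, and 1.15% and 1.8% in Y665F, or 4 to 20 barcodes a library, which the rule left out. The part of such background in the shares was not tested.

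**Figure D1:**
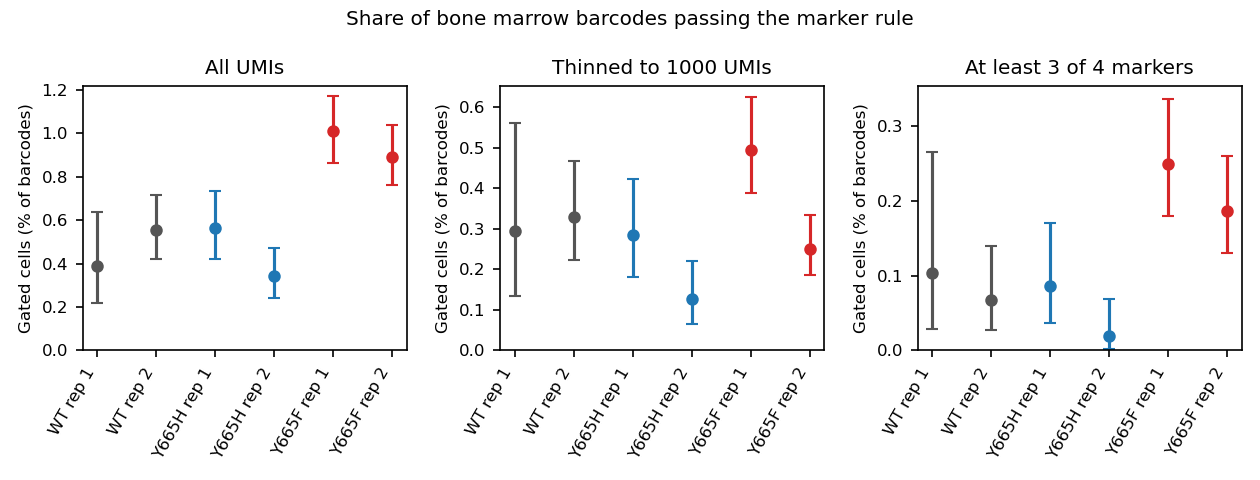
Percentage of quality-filtered bone marrow barcodes that were gated, for each of the 6 libraries, with exact 95% binomial intervals as bars. The panels show the rule as given, the rule after thinning to 1000 UMIs and the rule with at least 3 of 4 genes. Both Y665F libraries, at 1.01% and 0.893%, are the highest under the rule as given, and Y665F replicate 2 drops to 0.251% after thinning.

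The most frequent combination was Cpa3, the carboxypeptidase of mast cell and early basophil granules, with Ms4a2, the beta chain of the immunoglobulin E receptor. It was the only pair of rule genes detected in 236 of the 497 cells (47.5%). Cpa3 with Mcpt8, a basophil granule protease, followed with 110 cells (22.1%), and all 4 genes were detected in 37 cells (7.44%). The share of cells with a UMI of Mcpt8 or of Prss34, another basophil protease, was 53.3% and 38.6% in WT, 42.3% and 38.9% in Y665H, and 47.1% and 68.9% in Y665F. After thinning to 1000 UMIs the corresponding shares were 46.2% and 28.8%, 22% and 31.2%, and 26.2% and 31.7%, so the high value of Y665F replicate 2 was not kept.

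**Figure D2:**
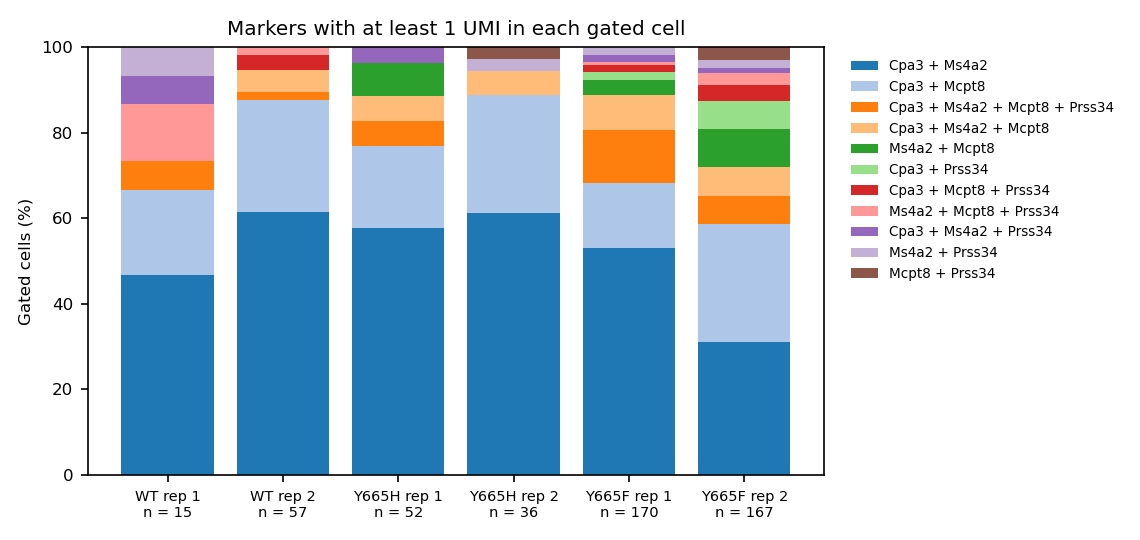
Percentage of gated cells in each library that held each combination of the 4 rule genes, as stacked bars that sum to 100% with the number of gated cells below. Cpa3 with Ms4a2 is the widest band in every library, at 31.1% in Y665F replicate 2 and between 46.7% and 61.4% in the others.

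The levels of the rule genes are a description of the choice. Cpa3 was at 654 and 755 CPM in the gated cells of the WT libraries, 572 and 584 CPM for Y665H, and 600 and 313 CPM for Y665F, against 8.57 to 26.9 CPM in the other barcodes. Ms4a2 was between 187 and 995 CPM, and Mcpt8 between 171 and 636 CPM. Prss34 varied most, from 64.9 CPM in Y665H replicate 2 to 1480 CPM in WT replicate 1, where the gated cells number only 15.

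Cells with a protease and cells with Cpa3 and Ms4a2 alone differed in other genes in all 6 libraries, which is a description because the split uses the rule. Mpo, Elane and Ctsg, the granule enzymes of GMP, and the GMP marker Ms4a3 were higher in the protease-positive cells of every library. Elane was at 343 and 2610 CPM in the protease-positive WT cells against 194 and 216 CPM in the others, and at 2250 and 1070 CPM against 742 and 743 CPM in Y665F. The transcription cofactor gene Lmo4, the apolipoprotein gene Apoe and the integrin gene Itga4 were higher in every library in the cells with Cpa3 and Ms4a2 alone. Lmo4 was at 1260 and 1380 CPM in those cells of WT against 68.6 and 376 CPM in the protease-positive cells.

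At least 3 of the 4 GMP genes Mpo, Elane, Prtn3 and Ctsg had a UMI in 46.7% and 36.8% of the gated cells of WT, 44.2% and 27.8% of Y665H, and 65.9% and 66.5% of Y665F. After thinning to 1000 UMIs the shares were 23.1% and 19.2%, 26% and 12.5%, and 26.2% and 30.5%. The Y665F libraries were still the highest, replicate 1 by a margin of 0.2 percentage points over Y665H replicate 1, within the counting intervals of both.

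Cells at the edge of the rule were compared as a description. Lmo4 was between 195 and 1180 CPM in cells with exactly 2 of the rule genes and between 93.1 and 284 CPM in otherwise eligible cells with only 1. Gata2 was between 108 and 324 CPM inside and between 47.3 and 150 CPM outside. In Y665F replicate 2 the values were closer, at 182 CPM inside and 150 CPM outside for Gata2.

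Genes that the rule did not use and that basophils express, among them Gata2, Hdc, Alox5, Srgn and Cd63, were higher in the gated cells than in the other barcodes of every library. Against all other quality-filtered barcodes, 221 of 2551 tested genes (8.66%) were higher in the gated cells of all 6 libraries. Of 30 basophil genes, 9 were higher in all 6, and of the 11 of them that were abundant enough to test, 8 were. The background percentage is printed beside these counts for scale, and nothing is read from it because the same cells were chosen by the rule.

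Gata2, which encodes the transcription factor of basophil and mast cell progenitors, was at 427 and 123 CPM in the gated cells of WT, 164 and 117 CPM for Y665H, and 360 and 215 CPM for Y665F. The other barcodes were between 21.5 and 121 CPM. Every library was higher in its gated cells, and Y665F replicate 2 had the highest level outside them.

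Lmo4 was at 768 and 948 CPM in the WT libraries, 1360 and 908 CPM for Y665H, and 680 and 224 CPM for Y665F, against 45.1 to 61 CPM in the other barcodes. Hdc, which encodes the enzyme that makes histamine, was between 67.8 and 146 CPM in the gated cells and between 7.22 and 15.6 CPM outside. Alox5, which starts leukotriene synthesis, was between 23.5 and 75.1 CPM in the gated cells and between 0.564 and 4.82 CPM outside. These 3 genes did not overlap between gated and other barcodes.

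Srgn, the core protein of granule proteoglycan, and Cd63, a granule membrane protein exposed on activated basophils, were higher in the gated cells of every library, at 986 to 3210 CPM and 471 to 1200 CPM. Csf1, which encodes a macrophage growth factor, was between 19.4 and 114 CPM against 0.846 to 4.41 CPM outside. Nkg7, a granule membrane gene first known in natural killer cells, was between 171 and 724 CPM against 94.2 to 210 CPM outside, and made up most of the summed T and natural killer cell markers, at 199 to 740 CPM in the gated cells against 116 to 225 CPM outside. Of these 11 markers 6 had a UMI in the gated cells. Cd3e, Cd3d, Cd3g, Cd8a and Ncr1 had 0 UMIs in all 6 libraries, and Trbc2, Cd4, Klrd1, Thy1 and Lck had 0 to 6 a library.

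The immunoglobulin E receptor was only partly detected. Fcer1a, the alpha chain that binds the antibody, was at 114 and 0 CPM in the WT libraries, 116 and 64.9 CPM for Y665H, and 181 and 42.9 CPM for Y665F, while Fcer1g, the signalling chain, was between 338 and 626 CPM. Cd200r3, a surface gene of mature basophils, had 2, 2, 1, 0, 7 and 0 UMIs in the libraries taken in the order WT, Y665H, Y665F. Il3ra, the alpha chain of the interleukin 3 receptor, was between 13 and 116 CPM and had the highest level in Y665H replicate 1.

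Mature mast cell genes were at or near 0. Mcpt1, Mcpt2, Mcpt4, Tpsab1, Tpsb2, Tpsg1, Mrgprb1, Mrgprb2, Maob and Smpx had 0 UMIs in all gated cells, and 14 of 24 mast cell genes had any. Cma1, the mast cell chymase, had 2 UMIs in Y665H replicate 1 and 18 and 2 in Y665F. Kit, the receptor for stem cell factor that mast cells keep and basophils lose, was at 228 and 30.8 CPM in the WT libraries, 73 and 51.9 CPM for Y665H, and 141 and 169 CPM for Y665F. It was higher outside the gate in 3 of the 6 libraries. The summed mast cell genes were at 1390 and 486 CPM in the gated cells of WT, 609 and 337 CPM for Y665H, and 786 and 519 CPM for Y665F. Outside the gate they were at 377 and 232, 225 and 216, and 428 and 527 CPM. Of 5 tested mast cell genes, 2 were higher in the gated cells of all 6 libraries, beside 8.66% of all tested genes. Nothing is read from this count, since the rule chose the cells. Among the rule genes, the label of mast progenitor rests on Cpa3 and Ms4a2, which early basophils also express.

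Genes of other lineages were also present. The summed GMP markers were between 2820 and 10700 CPM in the gated cells against 2130 to 3050 CPM outside, beside 3290 to 6460 CPM for the summed basophil genes in the gated cells. The summed neutrophil markers were between 23.1 and 66.9 CPM in the gated cells of the 4 WT and Y665H libraries and at 5520 and 3280 CPM in those of Y665F. The summed erythroid markers were between 558 and 2610 CPM in the gated cells against 1290 to 9030 CPM outside. The summed eosinophil markers were between 0 and 15.4 CPM in the gated cells of WT and Y665H and at 73.5 and 345 CPM in those of Y665F, and 5 of 8 had a UMI. The ribonuclease genes Ear1, Ear2 and Ear6 had 0 UMIs, Siglecf had 14 and 7 UMIs in Y665F and Prg3 had 9 and 3, and Prg2, the eosinophil major basic protein that basophils also make, had 0 UMIs in WT and Y665H and 24 and 239 in Y665F. Of the latter, 172 UMIs (72%) came from 1 cell of Y665F replicate 2.

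**Figure D3:**
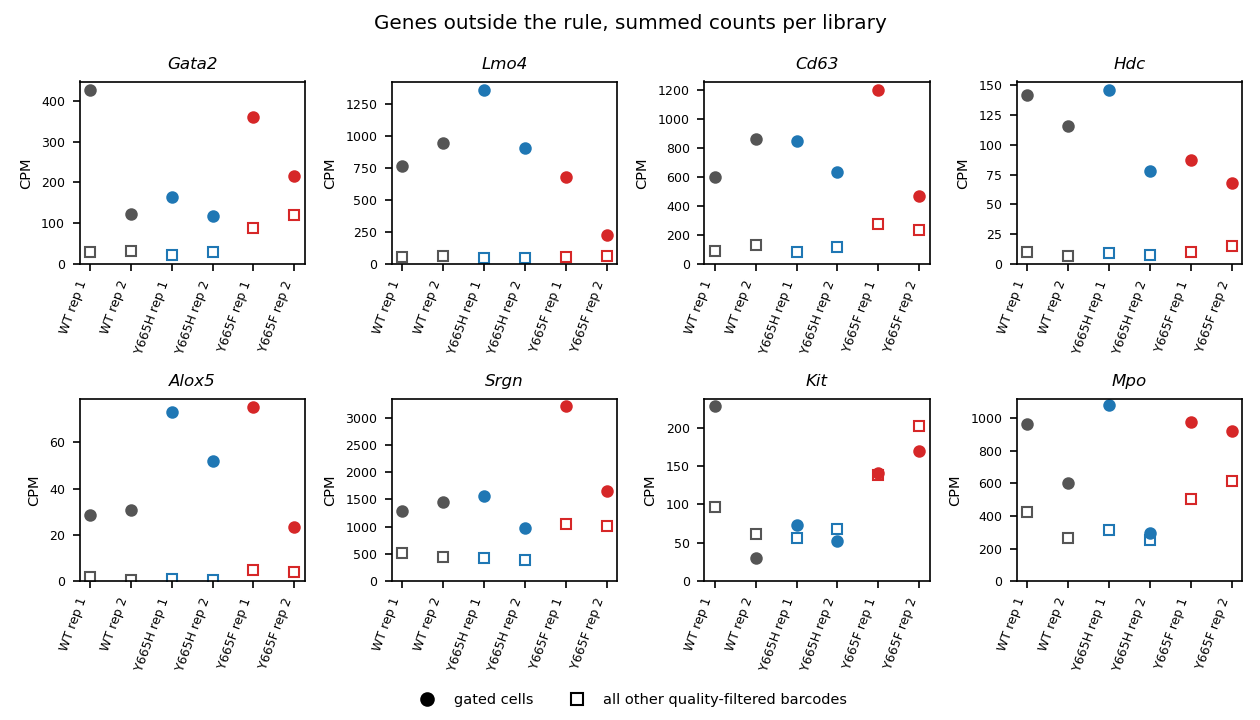
CPM of 8 genes that the rule did not use, summed over the gated cells (filled circles) and over all other quality-filtered barcodes (open squares) of each library, on linear axes that start at 0. Lmo4, Hdc and Alox5 separate the gated cells from the other barcodes in every library, while Kit does not and Mpo is close to the other barcodes in Y665H replicate 2.

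Between genotypes, counts summed per library over the gated cells were compared with the edgeR quasi-likelihood test, and a gene was called at an adjusted p under 0.05 (Benjamini-Hochberg over all 2551 genes tested) with an absolute log2 fold change over 1. Y665F against WT gave 9 called genes (0.353% of those tested), 7 higher (0.274%) and 2 lower (0.0784%), with 311 (12.2%) at an unadjusted p under 0.05. Y665F against Y665H gave 12 (0.47%), 9 higher (0.353%) and 3 lower (0.118%), with 507 (19.9%) at an unadjusted p under 0.05. Y665H against WT gave 0 by edgeR, with 56 genes (2.2%) at an unadjusted p under 0.05, and 0 by DESeq2, with 38. The median log2 fold change of all tested genes was 0.04, 0.01 and 0.03. Depth was uneven, with 35160 and 129748 UMIs in the gated cells of WT, 164318 and 77077 in Y665H, and 652836 and 722225 in Y665F, so the low genes of WT and Y665H rest on few molecules. The CPM of the libraries of 2 groups did not overlap for many tested genes, the called ones included. That was so for 14.2% of the tested genes with Y665F higher than WT and 29.3% with Y665F lower. The shares were 23.0% and 34.6% with Y665F higher or lower than Y665H, and 13.8% and 17.0% with Y665H higher or lower than WT. With 2 libraries a group, such separation is frequent without any difference, so nothing is read from these shares. Leaving out 1 library moved the Y665F against WT count to as many as 60 (without WT replicate 2) or 59 (without WT replicate 1), and to as few as 5 (without Y665F replicate 2).

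Apart from 4 neutrophil granule genes, the calls against WT were Rps12, Rps9, Dynll1, Cirbp and Gm43305. Rps12, a ribosomal protein gene, was at 1310 and 1360 CPM in the WT libraries, 1690 and 1620 CPM for Y665H, and 3840 and 5730 CPM for Y665F (log2 fold change over WT 2.07 ± 0.35, SE, edgeR adjusted p = 0.0061). Rps9 rose by 1.70 ± 0.34 over WT (adjusted p = 0.035), and Dynll1, a light chain of the dynein motor, by 2.29 ± 0.44 (adjusted p = 0.023). Cirbp, a cold-inducible RNA-binding protein gene, was at 455 and 617 CPM in WT and 149 and 116 CPM in Y665F, a log2 fold change of -1.84 ± 0.39 (adjusted p = 0.045). The predicted gene Gm43305 had a log2 fold change of -2.39 ± 0.50 (adjusted p = 0.045), and its level of 882 CPM in WT replicate 1 was far above the 239 CPM of WT replicate 2. Of these calls, that of Rps9 was lost in 8 of 13 alternatives, Cirbp in 6 of 12, Rps12 in 4 of 13, Gm43305 in 3 of 12 and Dynll1 in 2 of 12. Without Y665F replicate 2 all 5 calls were lost (edgeR adjusted p from 0.12 for Dynll1 to 1.0 for Rps9 and Cirbp), at log2 fold changes of 1.83 for Rps12, 1.53 for Rps9, 2.21 for Dynll1 and -1.60 for Cirbp, and with an adjusted p of 0.31 for Gm43305.

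Against Y665H, Rps12 and Rps9 were again higher in Y665F, and Gas5, a noncoding RNA that hosts small nucleolar RNAs, rose by 1.79 ± 0.36 (edgeR adjusted p = 0.024). Sfpq, a splicing factor gene, rose by 1.89 ± 0.41 (adjusted p = 0.049). Wfdc17 had 0 UMIs in Y665H and 102 in Y665F, at least 5.97-fold higher. Eif5a, a translation factor gene, was at 1890 and 1880 CPM in the Y665H libraries and 513 and 425 CPM in those of Y665F (log2 fold change -1.84 ± 0.35, adjusted p = 0.015). Uchl3, a ubiquitin hydrolase gene, and Nutf2, a nuclear import gene, were lower by log2 fold changes of -1.96 ± 0.36 and -1.95 ± 0.36 (adjusted p = 0.014 and 0.015). Of these calls, that of Sfpq was lost in 9 of 12 alternatives, DESeq2 (adjusted p = 0.086) among them, Rps12 in 7 of 13, and Rps9, Gas5 and Eif5a in 6 of 13 each. The call of Nutf2 was lost in 3 of 12 and that of Uchl3 in 2 of 12. Wfdc17 passed the filter on low counts only through Y665F, so its call, lost in 4 of 10, is given as a description. Without Y665F replicate 2 the calls of Rps12, Rps9, Gas5, Sfpq, Eif5a, Uchl3 and Nutf2 did not pass (edgeR adjusted p from 0.47 to 0.87), at log2 fold changes from 1.32 for Rps12 to 1.62 for Rps9 and from -1.70 for Nutf2 to -1.83 for Uchl3, and Wfdc17 was not tested.

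The genes were also measured in the rest of the marrow. Outside the gate, Rps12 was at 2750 and 1970 CPM in the WT libraries, 2250 and 2210 CPM for Y665H, and 3980 and 4960 CPM for Y665F. Eif5a outside the gate was at 1920 and 2170 CPM in the WT libraries, 2390 and 1960 CPM for Y665H, and 622 and 408 CPM for Y665F. For both genes the Y665F libraries stood apart from the other 4 inside and outside the gate alike, also in Cd79a barcodes, where Eif5a was at 1690 to 2190 CPM in WT and Y665H and at 593 and 514 CPM in Y665F. Whether a library-wide technical difference plays a part was not tested.

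The remaining 4 calls against WT were granule genes of maturing neutrophils, which passed the filter on low counts only through Y665F and are described by their levels. S100a9, which with S100a8 forms calprotectin, had 0 UMIs in the gated cells of all 4 WT and Y665H libraries and was at 1820 and 1070 CPM in Y665F. Since 0 of 164908 WT UMIs allows a level of up to 18.2 CPM, counted from 3 UMIs over the group, it was at least 78.5-fold higher in Y665F than in WT and at least 115-fold higher than in Y665H. S100a8 was at 0 and 0 CPM in the WT libraries, 18.3 and 0 CPM for Y665H, and 1640 and 1060 CPM for Y665F, at least 73.5-fold over WT. Camp, the cathelicidin gene, was at 0 CPM in both WT libraries, 6.09 and 0 CPM for Y665H, and 1060 and 699 CPM for Y665F, at least 47.8-fold over WT. These bounds count all gated cells, and 1 cell per Y665F library held 64.2% and 28.7% of the S100a8 and S100a9 UMIs.

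Ngp, another neutrophil granule gene, had 1 UMI in WT, 4 in Y665H and 580 in Y665F. The pooled ratio of Y665F to WT was 69.6 (95% counting interval 12.4 to 2750). In Y665F replicate 1, 373 of its 442 UMIs (84.4%) came from 1 cell, and in replicate 2, 64 of 138 (46.4%) did. Of 11 neutrophil markers 5 passed the filter on low counts. They had 0 or 1 UMI in WT and so passed through Y665F, where they are high, so their calls, which are 4 of the 9 against WT and 4 of the 12 against Y665H, are given as a description with no p and no median. Wfdc17 passed the filter in the same way.

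The neutrophil genes moved with the whole marrow. S100a9 was at 5.35 and 27.9 CPM outside the gate in WT, 26.6 and 19.3 CPM for Y665H, and 1170 and 529 CPM for Y665F. In Y665F, 18.8% (13.2 to 25.5%) and 21.6% (15.6 to 28.6%) of the gated cells held an S100a9 UMI, at median depths of 3151 and 2944 UMIs. Among Cd79a barcodes, which should lack the gene, the shares were 17.2% (14 to 20.9%) and 11.9% (6.93 to 18.5%), at median depths of 1724 and 2580 UMIs. The intervals of gated and Cd79a barcodes overlapped in both libraries. The level of S100a9 was 939 and 291 CPM in the Cd79a barcodes, below the 1820 and 1070 CPM of the gated cells.

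The UMIs were also unevenly spread. Of 2259 UMIs of S100a8 and S100a9 in the gated cells of Y665F replicate 1, 1450 (64.2%) came from 1 cell, and of 1543 in replicate 2, 443 (28.7%) did. Both cells were among the barcodes with high doublet scores, and 10 or more of these UMIs were found in 3 and 5 cells. The part of free RNA and of doublets in the result was not tested beyond 2 alternatives. In a setting chosen after the data were seen, the highest cell was removed from each Y665F library. The highest cell of Y665H replicate 1, with 1 of these UMIs, was removed as well. The counts of called genes were then 9 and 13. The fitted log2 fold change of Ngp fell from 6.26 to 4.56 over WT and from 4.79 to 3.09 over Y665H. Without all doublet calls the counts were 4 against WT and 8 against Y665H, S100a8 and S100a9 among both, with S100a8 over Y665H at 4.95 in place of 6.90 on the log2 scale, while Camp and Ngp fell below the filter on low counts and were not tested.

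**Figure D4:**
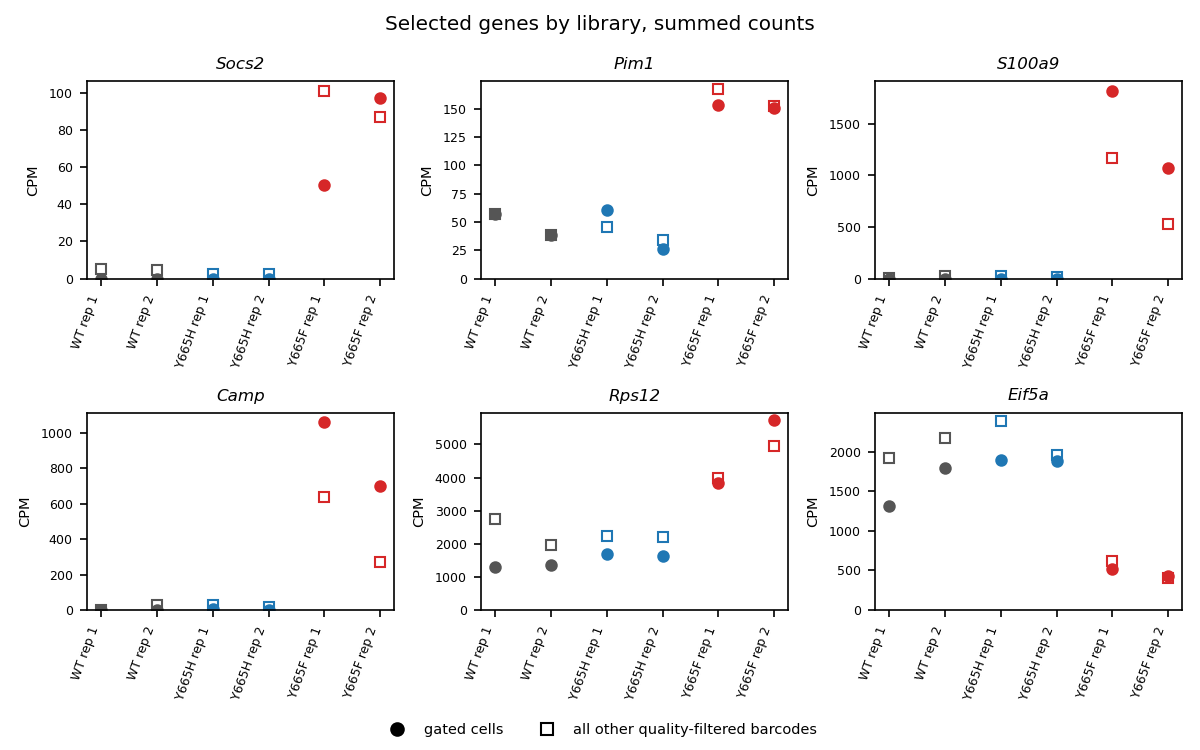
CPM of 6 genes summed over the gated cells (filled circles) and over all other quality-filtered barcodes (open squares) of each library, on linear axes that start at 0. Socs2, S100a9, Camp and Rps12 are higher and Eif5a is lower in both Y665F libraries, inside the gate and outside it. Socs2 was too low for the main test and Pim1 did not pass it.

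Stat5b itself, whose change of 1 amino acid these counts cannot show, was at 171 and 15.4 CPM in the gated cells of the WT libraries, 24.3 and 13 CPM for Y665H, and 47.5 and 36 CPM for Y665F. It rests on 1 to 31 UMIs a library, and the WT values overlapped those of both other genotypes. STAT5 target genes were read from a list of 25, of which 7 were abundant enough to test. Of the 7, 0 were called by edgeR or DESeq2 in any comparison of the main test with all 6 libraries. An unadjusted edgeR p under 0.05 was reached by 2 for Y665F against WT, beside 12.2% of all tested genes. It was reached by 0 for Y665H against WT (2.2%) and 3 for Y665F against Y665H (19.9%). Pim1, Bcl2 and Mcl1 would not have passed the filter on low counts without the Y665F libraries. Pim1 is 1 of the 2 genes, and Pim1 and Mcl1 are 2 of the 3, so nothing is read from these counts and no median is given. Of all tested genes 11.1% passed in that way, with fewer than 2 of the 4 WT and Y665H libraries at the needed 68.0 CPM. Medians are given only for lists without such genes. Pim1, a kinase gene, was at 56.9 and 38.5 CPM in the WT libraries, 60.9 and 25.9 CPM for Y665H, and 153 and 151 CPM for Y665F. It was not called in the test, and since it was tested only because of its level in Y665F these values are a description. Outside the gate Pim1 was at 57 and 38.1 CPM in the WT libraries, 45.7 and 33.9 CPM for Y665H, and 167 and 152 CPM for Y665F.

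Socs2, a feedback inhibitor of cytokine signalling, had 0 UMIs in all 4 WT and Y665H libraries and 33 and 70 in Y665F, and its pooled level was at least 4.12-fold over WT and at least 6.03-fold over Y665H. It was below the filter of the main test and was called once every gene with at least 1 count was tested. Socs2 entered that wider test only through Y665F, where it is high, so the call is given as a description. Cish, a second inhibitor of this family, had 0 UMIs in the same 4 libraries and 13 and 15 in Y665F. Its pooled level in Y665F, 20.4 CPM, was close to the 18.2 CPM that 0 UMIs allow in WT. The bounds for Cish were therefore only 1.12-fold over WT and 1.64-fold over Y665H, and its absence without Y665F is not shown. Outside the gate Socs2 was at 4.91 and 4.43 CPM in the WT libraries, 2.31 and 2.22 CPM for Y665H, and 101 and 86.9 CPM for Y665F, so its level inside and outside the gate moved the same way.

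The start of Cish is shown because it held the motif TTCNNNGAA, which STAT5 dimers bind and which reads the same on both strands. Capitals mark the matches in the RefSeq promoter window of GRCm38.p6 on the plus strand, at chr9:107296649-107296677 for site 1 and chr9:107296660-107296688 for site 2. The matches are 11 bases apart and begin at the start site. The motif was in 2726 of 32851 promoter windows (8.3%) of 250 bases before and 50 after the start, and was not in the windows of Cpa3, Ms4a2, Mcpt8, Prss34, Pim1, S100a8, S100a9, Camp or Ngp.

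Cish site 1: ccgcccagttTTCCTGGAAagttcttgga
Cish site 2: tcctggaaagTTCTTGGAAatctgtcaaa

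Lists of the immunoglobulin E receptor pathway, cytokine receptors and granule proteins held 0 called genes by edgeR or DESeq2 in the main test with all 6 libraries. Prg2 of the granule proteins, at 0 UMIs in WT and Y665H, was called when every gene with at least 1 count was tested. These lists also gained calls when 1 library was left out. For Y665F against WT, 2, 1 and 2 of their tested genes (of 7, 7 and 11) had an unadjusted edgeR p under 0.05, beside 12.2% of all tested genes. Nothing is read from these counts, because Btk of the first list and Cxcr4 and Il1rl1 of the second, Cxcr4 being the gene counted there, passed the filter on low counts only through Y665F. Of 21 genes of immunoglobulin E receptor signalling, 7 were tested. Fcer1g was within a log2 fold change of 0.21 of WT in either genotype (-0.02 ± 0.40 and -0.21 ± 0.42), and Rac2, a GTPase of the degranulation machinery, had log2 fold changes of -0.96 ± 0.39 and -0.23 ± 0.41. Neither gene passed.

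Of 34 cytokine receptor genes, 7 were tested. Csf2rb, the shared beta chain of the receptors for interleukin 3, interleukin 5 and GM-CSF, was at 28.4 and 23.1 CPM in the WT libraries, 36.5 and 25.9 CPM for Y665H, and 130 and 62.3 CPM for Y665F. It was too low for the test, and its WT and Y665H values in the gated cells rest on few UMIs, so these levels are a description. The 2 Y665F values were the highest, as they were outside the gate, at 33.4 and 30.5 CPM against 4.38 to 7.87 CPM. Il2rg, the common gamma chain, had a log2 fold change of -1.42 ± 0.46 in Y665F against Y665H that did not pass (edgeR adjusted p = 0.12).

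Granule proteins had a median log2 fold change of 0.25 for Y665F against WT and 0.05 for Y665H against WT over 11 tested genes, beside 0.04 and 0.03 for all tested genes. Srgn was at 1280 and 1460 CPM in the WT libraries, 1560 and 986 CPM for Y665H, and 3210 and 1650 CPM for Y665F, with a log2 fold change of 1.04 ± 0.38 over WT that did not pass (edgeR adjusted p = 0.30). Elane was highest in Y665H replicate 1, at 5480 CPM against 256 to 1500 CPM in the other 5 libraries, and 24.6% of its 901 UMIs there came from 1 cell.

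Lineage transcription factors had 11 tested genes and 0 calls by edgeR or DESeq2 in the main test with all 6 libraries. An unadjusted edgeR p under 0.05 was reached by 0 for Y665F against WT, 1 for Y665H against WT and 3 for Y665F against Y665H. The shares of all tested genes were 12.2%, 2.2% and 19.9%. Ikzf1 and Tal1, which are not among the genes counted, passed the filter only through Y665F. Lmo4 was at -0.73 ± 0.45 in Y665F against WT and -1.18 ± 0.44 against Y665H, and Runx1 at 2.07 ± 0.55 against Y665H (edgeR adjusted p = 0.075). Among lipid mediator enzymes, Alox5ap, the partner protein of Alox5, differed from WT by -0.01 ± 0.42 in Y665F and 0.30 ± 0.43 in Y665H. Of the cell cycle genes, 11 of S phase and 10 of G2/M were tested, with a median of 0.08 for S phase for Y665F against WT. Top2a was at 853 CPM in WT replicate 1 and between 46.2 and 318 CPM in the other 5 libraries.

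Apart from the neutrophil markers, the other lists held 0 genes called by edgeR in the test as described above, while DESeq2 called Ifitm1 and Ifitm3 for Y665F against WT and Car1 for Y665F against Y665H. Under alternatives edgeR called Car1 for Y665F against Y665H, with the replicate block and with doublets removed among them. When every gene with at least 1 count was tested, edgeR called Pf4, Prg2 and Socs2 in both Y665F comparisons. In that setting it also called Car1, Ccl6, Ifit1 and Ly6a for Y665F against Y665H. Prg2 and Socs2 had 0 UMIs in WT and Y665H, and Ccl6 and Ly6a had 0 in Y665H, so their calls are given as a description. These lists also gained calls when 1 library was left out. The interferon-induced genes had 4 tested members, with Ifitm3 at a log2 fold change over WT of 1.63 ± 0.39 (edgeR adjusted p = 0.075). The megakaryocyte markers had 3 tested members, with Pf4, at 3 and 1 UMIs in WT, at 3.63 ± 0.86 (adjusted p = 0.071). The erythroid gene Car1 was at 651 and 1480 CPM in the Y665H libraries and 155 and 324 CPM in those of Y665F, a log2 fold change of -1.95 ± 0.44 (adjusted p = 0.061). Outside the gate Car1 was at 5350 and 3980 CPM in the Y665H libraries and 619 and 373 CPM in those of Y665F. Medians were -0.07 for 6 heat shock genes, -0.35 for 4 stem cell genes and 0.56 for 6 GMP markers, all for Y665F against WT.

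Whether a genotype difference was larger in the gated cells than in GMP was tested with the class-by-genotype term of edgeR over both sums of each library. Cells that met both gates, 2 and 11 gated cells in WT, 13 and 5 in Y665H, and 62 and 56 in Y665F (13.3 to 25% in WT and Y665H, 36.5% and 33.5% in Y665F), were kept with the gated cells and left out of GMP. For Y665F against WT, 12 of 9675 genes (0.124%) were called, 4 with a higher value in the gated cells (0.0413%) and 8 with a lower one (0.0827%), and 561 (5.8%) had an unadjusted p under 0.05. For Y665H against WT edgeR called 0, with 282 genes (2.91%) at an unadjusted p under 0.05, and 0 under the other normalization, the other comparison cells and the wider gene set. Without WT replicate 2 the counts were 138 and 4.

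Slc18a2, the vesicular transporter that loads histamine and other monoamines into granules, had the largest difference among the 8 genes with a lower value in the gated cells, at -3.15 ± 0.55 on the log2 scale (edgeR adjusted p = 5.0e-05). It was at 455 and 69.4 CPM in the gated cells of WT and 146 and 77.5 CPM in those of Y665F, and at 8.44 and 2.1 CPM in the GMP of WT and 23.7 and 34.8 CPM in those of Y665F. The gated cells were above GMP in every library, and the Y665F levels of GMP were above the WT levels. Its value in WT replicate 1 rests on 16 UMIs, and the difference did not pass without that library (-2.87, adjusted p = 0.23) or without Y665F replicate 2 (-2.32, adjusted p = 0.28).

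Ikzf2, a transcription factor gene, differed by -2.46 ± 0.43, and Angpt1, a growth factor gene of stem and progenitor cells, by -1.94 ± 0.35 (adjusted p = 5.0e-05 and 6.5e-05). Ikzf2 was at 427 and 154 CPM in the gated cells of WT and 185 and 95.5 CPM in Y665F, against 17.9 and 12.3 CPM and 50.3 and 63.7 CPM in GMP. Ifitm1 differed by -1.47 ± 0.34 (adjusted p = 0.021). It was at 939 and 940 CPM in the gated cells of WT and 2890 and 1310 CPM in Y665F, against 231 and 128 CPM and 1630 and 842 CPM in GMP. In GMP the Y665F levels of both genes were above the WT levels. The call for Ikzf2 was lost without Y665F replicate 2 (-1.71) and against erythroid cells (-1.82), and that for Angpt1 without WT replicate 2 (-1.56) or Y665F replicate 2 (-1.61). The call for Ifitm1 was kept in only 3 of 9 alternatives.

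The 4 calls with a higher value in the gated cells were Camp, Ngp, S100a8 and S100a9. WT gated cells held 0 UMIs of 3 of them and 1 of Ngp, so the fitted values depend on the prior count and are no bound, and a larger difference in the gated cells than in GMP is not shown for them. In GMP, S100a9 was at 6.33 and 37.8 CPM in WT and 696 and 385 CPM in Y665F. The WT levels in GMP lay on either side of the 18.2 CPM that 0 UMIs allow in the gated cells of WT. The calls of all 4 genes were lost without WT replicate 2 and against erythroid cells, and that of S100a9 also without Y665H replicate 1.

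**Figure D5:**
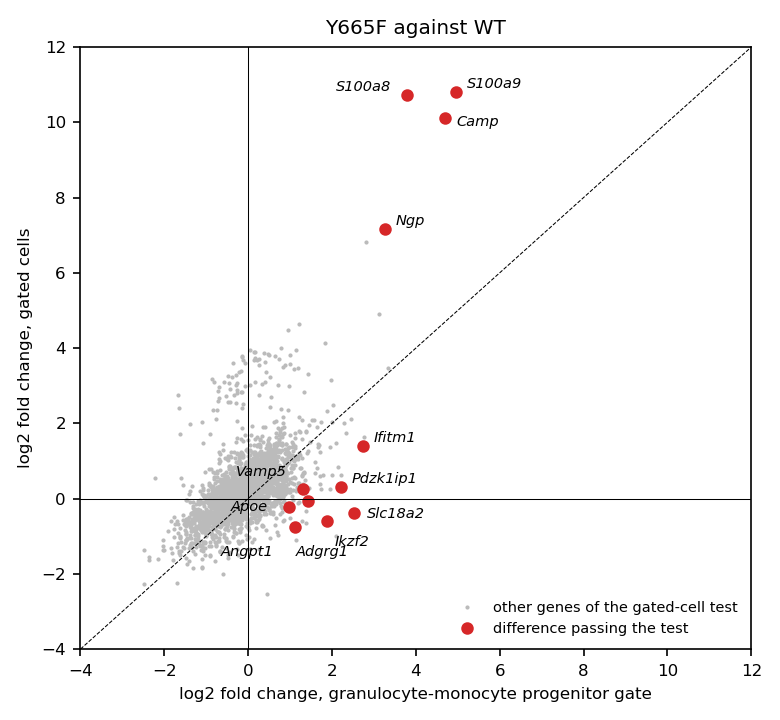
Log2 fold change of Y665F against WT in the GMP gate (horizontal axis) and in the gated cells (vertical axis), computed with a small prior count, for the genes tested in the gated cells and the genes called. Red points are the 12 genes whose difference passed the class-by-genotype test, and the dashed line marks equal change. S100a8, S100a9, Camp and Ngp lie above it and 8 genes, among them Slc18a2 and Ikzf2, lie below it.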

How the data were processed

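Single-cell expression was measured in 6 bone marrow libraries, 2 per genotype, grouped by the labels. The deposited values are raw counts of UMIs per gene and barcode (32285 genes), made by the authors with Cell Ranger against mm10 (GRCm38). The file headers give version 6.0.0 and the submitters' processing notes Cell Ranger 5.0 and Seurat 4.0. The labels name a 3′ kit and the methods a 5′ kit.

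The members and gene lists were chosen with earlier results of these data known. Filters and gates were applied in Python 3.11.15 with scikit-learn 1.9.0, SciPy 1.17.1 and NumPy 2.4.6. Doublets were kept, and barcodes with the highest simulated-doublet scores (0.8% per 1000 barcodes) were removed as an alternative. Counts were summed per library over the gated cells and over the comparison cells, and tested in R 4.3.3 with edgeR 4.0.16 (quasi-likelihood, TMM, filterByExpr, all genotypes in 1 model; library as a block in the class-by-genotype test), after a check on simulated data. The 6 genes of the rule were left out of counts and tests. CPM are relative to all UMIs of a class. Each standard error was derived from the log2 fold change and its F statistic. Shares were tested by exact permutation.

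Named genes were the 10 largest rises and falls among calls whose libraries did not overlap, without sex-linked genes, plus called list genes and up to 4 list genes with the highest mean CPM. Genes of the class-by-genotype test, Socs2, Cish, Csf2rb, Lcn2 and the genes of the cell description were named after their values were seen. Gp49a had no entry in the matrices. Counts of total UMIs per library and the number of gated cells limit the precision. Alternatives were DESeq2 1.42.0, RLE size factors, other filters and rules, the replicate block and each library left out. Lymph node libraries and receptor tables were not used here, and the spleen only for its shares.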

Additional observations from a re-analysis of the deposited data

Results flagged for a closer look

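Of the genes tested for a difference between the gated cells and GMP in their response to Y665F against WT, 12 passed the edgeR class-by-genotype test. The difference of log2 fold changes, gated cells minus GMP, was -3.15 for Slc18a2, -2.46 for Ikzf2, -1.94 for Angpt1, -2.97 for Pdzk1ip1, -1.36 for Apoe, -1.47 for Ifitm1, -1.28 for Vamp5 and -1.53 for Adgrg1. The fitted value was 11.19 for Camp, 4.65 for Ngp, 11.1 for S100a8 and 10.72 for S100a9, but these had 0 or 1 UMI in the gated cells of WT, so the values depend on the prior count and do not show a larger difference in the gated cells. The call was lost in 8 of 9 alternatives for Adgrg1, in 7 for Apoe, which was at -0.23 without WT replicate 2, in 6 for Ifitm1, in 7 for Vamp5 and in 3 for Pdzk1ip1 and S100a9, the turned signs included, and in 2 for each of the others. The sign turned for Pdzk1ip1 without WT replicate 2 and for Vamp5 against erythroid cells.

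The spleen libraries, 1 per genotype, made from sorted CD45+ cells and used in no comparison of the marrow, also held barcodes that pass the rule. They were 7 of 6743 in WT (0.104%, exact 95% binomial interval 0.0417 to 0.214%), 24 of 7876 in Y665H (0.305%, 0.195 to 0.453%) and 22 of 4947 in Y665F (0.445%, 0.279 to 0.673%). All 4 genes of the rule were detected in 0, 3 and 12 of these cells. The median depth of these gated spleen cells was 3998 UMIs in WT, 4435.5 in Y665H and 7748 in Y665F. The part of depth in the shares was not tested.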

How the results depend on the processing

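The share of gated cells did not pass the exact permutation test under the 8 alternatives that could reach 0.05, with Y665F to WT ratios from 1.19 (thinned) to 2.55 (at least 3 genes of the rule). Leaving out each library gave ratios of 1.72 to 2.45, with 0.0667 the smallest p these designs allow, which was reached without Y665H replicate 1 (8 of 8 pairs in order). With the replicate block, the exact permutation p was 0.278, where 0.0556 is the smallest. Correlations of deviations between libraries of the same replicate number were 0.0281, -0.108 and 0.182, from sums over as few as 15 cells. Whether the numbers pair the samples cannot be told from these values, and Xist goes with the number. The block is an alternative and is given here only. It gave 7, 0 and 10 called genes for Y665F against WT, Y665H against WT and Y665F against Y665H. The calls of Rps9 and Cirbp against WT (edgeR adjusted p = 0.081 each) did not pass under it. Those of Rps12 and Sfpq against Y665H (edgeR adjusted p = 0.058 and 0.11) did not pass either. The call of Wfdc17 against Y665H, given as a description, was also lost, while Car1 was gained there. The log2 fold changes of the 5 lost calls were close to those without the block, at 1.69 and -1.89 against WT and 1.66, 1.85 and 7.48 against Y665H, the last for Wfdc17, which had 0 UMIs in Y665H.

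Counts of called genes moved more. DESeq2 gave 24 and 23 for Y665F against WT and against Y665H, and testing every gene with at least 1 count gave 16 and 33. The rule of at least 3 genes left 300 genes to test and gave 0 in all comparisons, with 28, 4 and 32 at an unadjusted p under 0.05, DESeq2 not being run there. Removing doublets gave 4 for Y665F against WT and 8 against Y665H. Leaving out 1 library gave 5 to 60 for Y665F against WT, 0 to 55 for Y665H against WT and 6 to 182 for Y665F against Y665H. The ends without a WT library were 59 (replicate 1) and 60 (replicate 2) for Y665F against WT, 55 (replicate 2) for Y665H against WT, and 182 (replicate 1) and 138 (replicate 2) for Y665F against Y665H. In the first of these, leaving out Y665H replicate 1 or 2 gave 20 and 18, and Y665F replicate 1 or 2 gave 14 and 5. For Y665H against WT, the single calls were Xist without Y665H replicate 1 and Elane without replicate 2. For Y665F against Y665H, 27 were called without Y665H replicate 2, and 19 and 6 without Y665F replicate 1 or 2. A group then left with 1 library is assumed to vary like the others.

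For the class-by-genotype test of Y665F against WT, erythroid comparison cells gave 7 calls, RLE size factors 17 and leaving out 1 library 5 to 138, the latter without WT replicate 2. For Y665H against WT that range was 0 to 4. Pdzk1ip1 ranged from -3.83 to 0.12 as 1 library was left out, turning its sign without WT replicate 2, and Vamp5 to 0.53 against erythroid cells. The causes were not tested. The 72 gated cells of WT and 88 of Y665H limit what can be detected there.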
